A study of Homo sapiens with 6 samples.

Results

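The genes of the death receptor pathway were followed in 3 established human lines of uveal melanoma, which are Mel 290, Mel 270 and 92.1, each grown alone and with activated T cells. The pathway was represented by 10 genes: the receptor genes FAS, TNFRSF10A, TNFRSF10B and TNFRSF10D, the ligand gene TNFSF10, the initiator caspase genes CASP8 and CASP10, the caspase inhibitor gene CFLAR, and the adaptor genes FADD and RIPK1. Members were taken as the probe sets, groups of array probes summarized to 1 value, whose annotated symbol was one of these genes. Probe sets were found for 9 of the 10 genes, out of 18417 genes with a probe set of 1 symbol. There were 10 such probe sets, because CFLAR had 2. RIPK1 was not analysed here.

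Uveal melanoma is a cancer of the pigment cells of the eye. In the co-cultures, T cells from healthy volunteers, activated with beads against CD3 and CD28, sat in a membrane insert with 0.4 µm pores above the melanoma cells for 64 h, with 1500000 T cells per well. The other cultures had no T cells, and both kinds were kept in the same serum-free medium. Plated melanoma cells numbered 80000 for 92.1 and 100000 for Mel 270 and for Mel 290. The number of T cells per plated melanoma cell thus differed between lines. There was 1 array per line and condition, so each line contributed 1 difference and the lines were the 3 replicates. The comparison asked which transcripts of the melanoma cells differ when soluble factors of activated T cells reach them.

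The labelled cell type and the absence of T cells from the RNA were checked with marker genes. The 8 measured melanocyte markers averaged a log2 signal of 10.54 in 92.1 and 11.08 in Mel 270 grown alone, but 5.83 in Mel 290. In co-culture they averaged 10.19, 9.80 and 5.76, so the list was lowest against its level alone in Mel 270, where its summed linear signal was 14925 in co-culture and 27416 alone. The part of this shift in the results was not tested. PMEL, a melanosome protein gene, was at 13.08, 12.55 and 6.10 in 92.1, Mel 270 and Mel 290 alone. The pigment cell genes MLANA, TYR and TYRP1 lay below 5.80 on both arrays of Mel 290, where 3 of the 8 markers reached that level. The lineage regulators MITF (8.96 alone, 8.16 in co-culture) and SOX10 (6.84 and 7.25) were above it there, but the regulator PAX3 (5.15 and 5.30) was below it. The markers thus bore out the melanocyte label only in part in that line. The 17 T cell markers averaged 5.53 to 5.69 alone and 5.48 to 5.74 in co-culture, and their summed linear signal was 1057 to 1192 alone and 1049 to 1276 in co-culture. CD3D, CD3E and CD3G, chains of the T cell receptor complex, and PTPRC, the common leukocyte antigen gene, were below 5.80 on all 6 arrays. On each array 7 or 8 of the 17 markers reached 5.80, in cultures with and without T cells. Among them GZMB, a cytotoxic granule protease gene, differed in co-culture by -0.14 in 92.1, 0.40 in Mel 270 and 0.41 in Mel 290 (mean 0.22 ± 0.31, adjusted p = 0.53) and CD7 by 0.11 ± 0.03 (adjusted p = 0.71).

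Death receptors are surface proteins of the tumour necrosis factor receptor family with a death domain inside the cell. FAS binds the FAS ligand, and TNFRSF10A and TNFRSF10B bind TRAIL, the product of TNFSF10, which T cells and many interferon-treated cells make. TNFRSF10D also binds TRAIL but lacks a complete death domain and acts as a decoy. A bound receptor recruits FADD, which brings in caspase-8 and caspase-10, and their cleavage starts apoptosis. CFLAR encodes c-FLIP, a relative of caspase-8 that takes its place in the complex and, in most settings, holds back its activation. RIPK1 is a kinase that links these receptors to survival signalling and to necroptosis.

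By the RefSeq gene table, CFLAR, CASP10 and CASP8 are adjacent protein-coding genes in this order, and TNFRSF10B, TNFRSF10C, TNFRSF10D and TNFRSF10A also stand in a row. To show the regulatory sequence of members whose signal was higher in co-culture, the 250 bases before a RefSeq transcription start (GRCh38.p14) of TNFSF10, CFLAR and FAS are given 5′ to 3′ on the strand of the gene. They lie at chr3:172523431-172523680 on the minus strand, at chr2:201118466-201118715 on the plus strand and at chr10:88990548-88990797 on the plus strand. Capitals mark matches to any of 3 motifs on either strand.
TNFSF10: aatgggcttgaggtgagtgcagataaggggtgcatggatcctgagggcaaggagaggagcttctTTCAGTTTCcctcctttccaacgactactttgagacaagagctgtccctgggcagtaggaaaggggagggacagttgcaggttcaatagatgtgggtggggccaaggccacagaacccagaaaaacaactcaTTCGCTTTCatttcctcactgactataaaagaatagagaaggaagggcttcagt
CFLAR: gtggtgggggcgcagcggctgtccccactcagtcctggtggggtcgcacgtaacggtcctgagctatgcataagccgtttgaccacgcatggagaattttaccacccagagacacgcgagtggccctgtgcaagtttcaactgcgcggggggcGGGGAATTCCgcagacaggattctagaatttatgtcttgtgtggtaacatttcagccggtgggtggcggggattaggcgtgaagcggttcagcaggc
FAS: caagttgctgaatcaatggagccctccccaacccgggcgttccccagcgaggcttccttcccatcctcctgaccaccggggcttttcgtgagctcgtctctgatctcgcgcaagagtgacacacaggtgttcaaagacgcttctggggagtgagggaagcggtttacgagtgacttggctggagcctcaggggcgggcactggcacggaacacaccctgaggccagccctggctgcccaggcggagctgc

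The motifs searched were TTCNNNGAA, the site of activated STAT dimers, GAAANNGAA, the core of the interferon-stimulated response element (ISRE), and the consensus kappaB motif. They were present in 6.57%, 6.88% and 5.21% of the 35116 windows of 250 bases in the promoter table. TNFSF10 held 2 ISRE core matches, read on the printed strand as TTCAGTTTC, 186 to 178 bases before the start, and TTCGCTTTC, 54 to 46 bases before it. The printed CFLAR window held 1 kappaB match, GGGGAATTCC, 97 to 88 bases before the start. Among the other starts of CFLAR, 1 of 3 windows held an ISRE core match. The FAS window printed held no match to these letters, and 1 of the other FAS windows held 1 kappaB match. Of RIPK1, which has no expression value here, 2 of 3 windows, which overlap, held the same ISRE core match, TTCGGTTTC. In all, 15 windows of 6 members were searched, and CASP8 had the only TTCNNNGAA match among them, TTCCAAGAA, 200 to 192 bases before 1 of its starts. TNFRSF10A, TNFRSF10B, TNFRSF10D and CASP10 were not among the members searched.

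Among the 4 receptors, FAS had the largest difference, at about the same size in each line. Its log2 signal alone was 6.85 in 92.1, 7.26 in Mel 270 and 8.47 in Mel 290, and in co-culture it was 8.35, 9.13 and 10.09. Every line was higher in co-culture, although the lowest co-culture value lay below the highest value alone, so the groups overlapped. The rise was 1.50 in 92.1, 1.87 in Mel 270 and 1.62 in Mel 290, with a mean of 1.66 ± 0.19 (SD, n = 3 lines, 3.17-fold). In the limma fit over all 13808 tested genes, with cell line as a block, the adjusted p was 0.023. FAS was not called without 92.1 (1.74, adjusted p = 0.080), without Mel 290 (1.68, adjusted p = 0.072) or without the line block (adjusted p = 0.78). Each array measured RNA of a whole culture, so more transcript per cell and more cells with the transcript cannot be told apart.

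TNFRSF10B, the TRAIL receptor also known as DR5, had a smaller difference, higher in co-culture in each line. It was at 10.05, 10.17 and 9.94 alone in 92.1, Mel 270 and Mel 290, and at 10.80, 10.71 and 10.77 in co-culture. The groups did not overlap, and the lines lay within a narrow band in each condition. The difference of 0.71 ± 0.15 (1.63-fold) did not pass the threshold over all genes (adjusted p = 0.088).

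The other TRAIL receptors stayed near the filter level of 5.80, below which signal was treated as mostly background, and probes of these related genes can share signal. TNFRSF10A, also a death-inducing TRAIL receptor, was at 6.01, 6.21 and 6.14 alone and at 5.72, 6.12 and 5.96 in co-culture. It was lower by a small amount in every line (-0.19 ± 0.10, adjusted p = 0.48). TNFRSF10D, the decoy, was at 5.95, 6.13 and 6.10 alone and at 5.74, 5.75 and 6.31 in co-culture. Its difference was negative in 92.1 and Mel 270 and positive in Mel 290, with a mean of -0.13 ± 0.30 (adjusted p = 0.73).

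**Figure D1:**
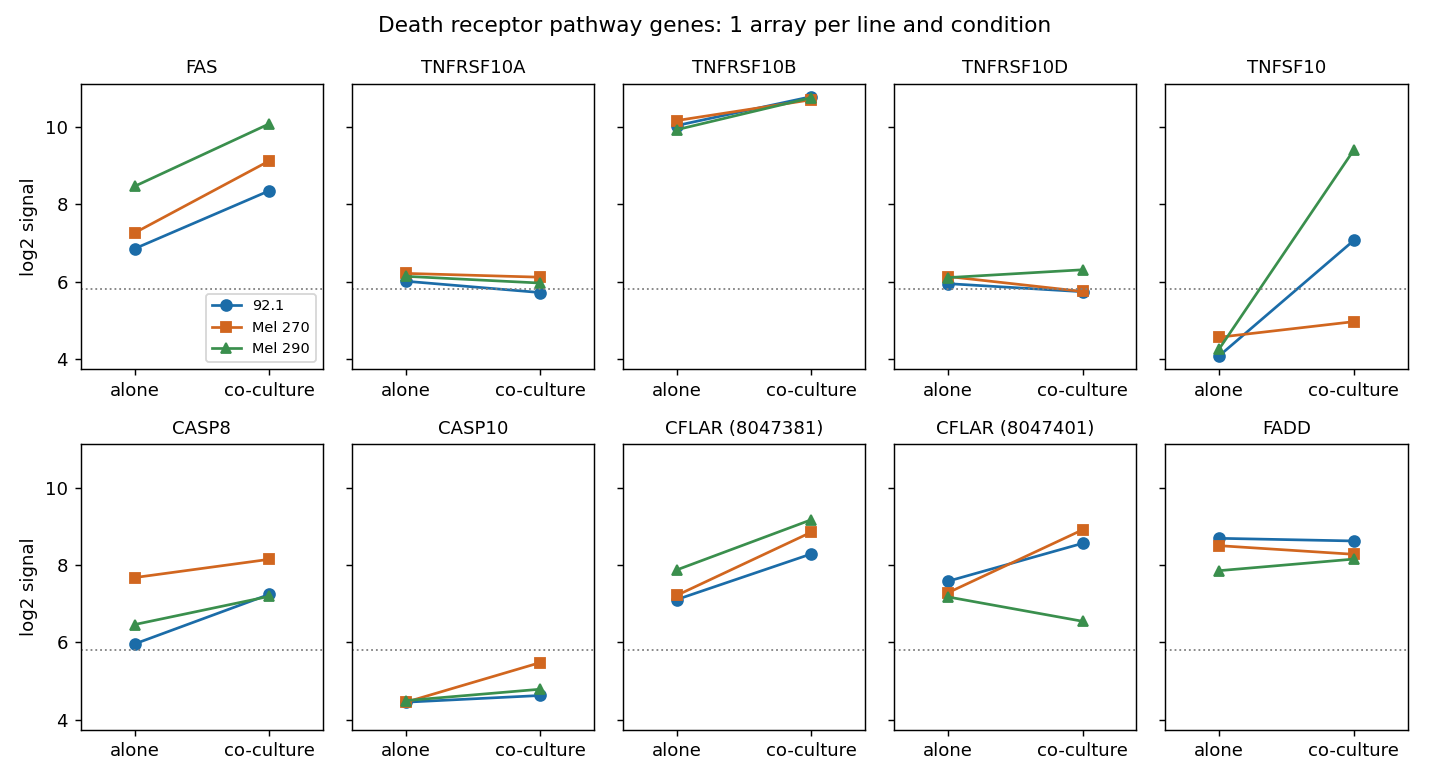
Log2 signal (vertical axis) of the 10 probe sets of the death receptor genes, alone and in co-culture, with 1 point per array and a line joining the arrays of 1 cell line; the dotted line is the filter level of 5.80. FAS and CFLAR probe set 8047381 climb in parallel in the 3 lines, TNFSF10 fans out from 4.07 to 4.56 alone to 4.96 to 9.41 in co-culture, and CFLAR probe set 8047401 lies lower in co-culture in Mel 290.

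The ligand gene TNFSF10 had the widest spread between lines of any member. Alone it was at 4.07 in 92.1, 4.56 in Mel 270 and 4.25 in Mel 290, all below the filter level. In co-culture it was at 7.07 in 92.1, 4.96 in Mel 270 and 9.41 in Mel 290. Mel 270 thus stayed below the filter level with the T cells, whereas the other lines went above it.

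The differences in TNFSF10 were 2.99 in 92.1, 0.40 in Mel 270 and 5.16 in Mel 290, a mean of 2.85 ± 2.38. Since the values alone were low, sizes are imprecise: with values under 5.80 raised to it, TNFSF10 was 2.41-fold higher in 92.1 and 12.2-fold higher in Mel 290. Its mean over the 6 arrays, 5.72, fell just short of the filter, so it was not tested among the 13808 genes. In a fit without any filter its adjusted p was 0.21.

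The caspase inhibitor gene CFLAR was covered by 2 probe sets, and they disagreed in Mel 290. The annotation lists 20 accessions for probe set 8047381, 1 of them a RefSeq transcript, and whether that list is complete was not checked. For this probe set, log2 signal alone was 7.11 in 92.1, 7.22 in Mel 270 and 7.88 in Mel 290. In co-culture it was 8.29, 8.86 and 9.18. Each co-culture value exceeded every value alone, and the differences were 1.18, 1.64 and 1.30 in the same order. The mean of 1.37 ± 0.24 (2.59-fold) was called, with an adjusted p of 0.049, close to the threshold. It was called under only 1 of 11 other settings, a filter at the median, and its adjusted p over the 11 ran from 0.040 to 0.50. Without 92.1, Mel 270 or Mel 290 it was 0.12, 0.075 and 0.10, with changes of 1.47, 1.24 and 1.41.

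Probe set 8047401, with 7 accessions listed, all RefSeq transcripts, was at 7.59 in 92.1, 7.29 in Mel 270 and 7.18 in Mel 290 alone. In co-culture it was at 8.57, 8.92 and 6.55. It was higher by 0.98 in 92.1 and 1.63 in Mel 270, much as for the other probe set, but differed by -0.63 in Mel 290, where the other was 2.46-fold higher. The mean was 0.66 ± 1.17 (adjusted p = 0.48 in a fit over 14590 probe sets). The same fit called the first CFLAR probe set (adjusted p = 0.049) and FAS (adjusted p = 0.025), among 0.418% of probe sets called higher. With both probe sets averaged, CFLAR differed by 1.02 and was not called (adjusted p = 0.13). Which transcripts each probe set read in Mel 290 was not tested.

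Among the initiator caspases, CASP8 was higher in each line and CASP10 was barely detected. CASP8 was at 5.96 in 92.1, 7.68 in Mel 270 and 6.46 in Mel 290 alone, and at 7.24, 8.15 and 7.19 in co-culture. The differences were largest in 92.1 (1.28), where the level alone was lowest, and smallest in Mel 270 (0.47), where it was highest. The mean of 0.83 ± 0.41 (1.78-fold) did not pass (adjusted p = 0.12). CASP10 lay below 5.80 on all 6 arrays, at 4.45 to 4.49 alone and at 4.62, 5.48 and 4.79 in co-culture in 92.1, Mel 270 and Mel 290. Its largest difference, 1.03 in Mel 270, stayed under the filter level.

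FADD, the adaptor between receptor and caspase, was at 8.70 in 92.1, 8.51 in Mel 270 and 7.86 in Mel 290 alone and at 8.63, 8.28 and 8.16 in co-culture. Its values overlapped between conditions. The mean difference was 0.0026 ± 0.27 (adjusted p = 0.99), with a 95% interval of -0.39 to 0.40 in the fit.

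**Figure D2:**
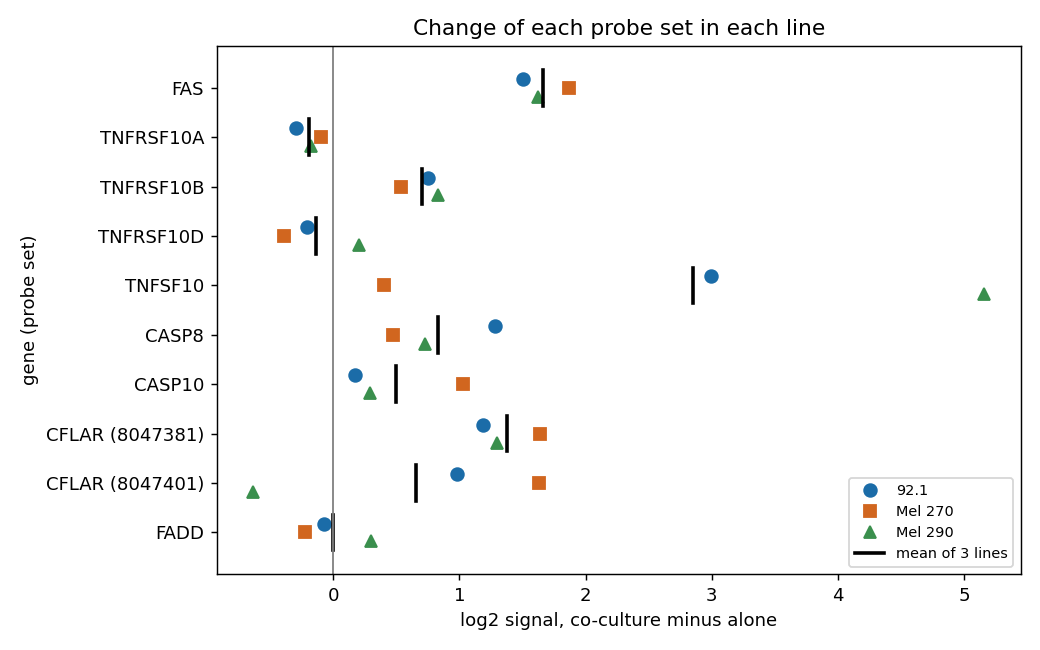
Log2 signal in co-culture minus that alone (horizontal axis) for the 10 probe sets of the death receptor genes, with 1 symbol per line and a black bar at the mean of the 3 lines. FAS, TNFRSF10B, TNFSF10, CASP8, CASP10 and CFLAR probe set 8047381 lie to the right of 0 in all 3 lines, TNFRSF10A lies to the left, and CFLAR probe set 8047401 is at -0.63 in Mel 290.

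Of the 9 measured members, 7 passed the filter on low values and 2 of these, FAS and CFLAR, were called higher, where 0.413% of all tested genes were called higher. None was called lower. Members higher in 3 of 3 lines numbered 6 of the 9 measured and 4 of the 7 tested, against 16.2% of all tested genes. In 4 of the 9 measured members (TNFRSF10B, TNFSF10, CASP10 and CFLAR), of which 2 were tested, every co-culture value lay above every value alone, as in 4.03% of all tested genes. The median difference was 0.71 over the tested members and -0.041 over all tested genes. Differences of at least 2-fold upward were seen in 4 of 9 measured members in 92.1, 3 in Mel 270 and 3 in Mel 290, of which 3, 2 and 2 were among the 7 tested. At the same fold, 3.63%, 5.29% and 2.07% of all tested genes were higher in these lines. The counts over 9 include CASP10, below 5.80 on all 6 arrays, and TNFSF10, below 5.80 on both arrays of Mel 270. With values under 5.80 raised to it, CASP10 in each line and TNFSF10 in Mel 270 had a difference of 0. CFLAR enters these counts and the median through probe set 8047381, which had the higher mean signal. Its other probe set, 8047401, was not called and was higher in 92.1 and Mel 270 only. In Mel 290 it was at 7.18 alone and 6.55 in co-culture, so its values overlapped between conditions. It was at least 2-fold higher in Mel 270 only. The percentages cover tested genes only. A gene high in only 1 condition can pass the filter through that condition, so these counts are a description.

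The lines also differed in their levels of some members over both conditions. FAS was lower in 92.1 than in the mean of the other lines (difference -1.13 ± 0.15 SE, 7.60 against 8.74, adjusted p = 0.014) and higher in Mel 290 (1.38 ± 0.15 SE, 9.28 against 7.90, adjusted p = 0.0045). The order Mel 290, Mel 270, 92.1 was the same alone and in co-culture. CASP8 was higher in Mel 270 (1.20 ± 0.20 SE, 7.92 against 6.71, adjusted p = 0.026). The CFLAR probe set 8047381 was higher in Mel 290 (0.66 ± 0.16 SE, 8.53 against 7.87, adjusted p = 0.035), whereas probe set 8047401 was lower there without passing (-1.23 ± 0.47 SE, 6.86 against 8.09, adjusted p = 0.12 over probe sets).

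FADD was lowest in Mel 290 among the lines without passing (8.01 against 8.53, adjusted p = 0.074), and TNFRSF10B was level across the lines, with means of 10.42, 10.44 and 10.35 in 92.1, Mel 270 and Mel 290. The members called numbered 1 of 7 in 92.1, 1 of 7 in Mel 270 and 2 of 7 in Mel 290, and these lines called 15.9%, 14.4% and 26.2% of all tested genes in either direction (25.6% of probe sets in Mel 290). The shares of members were thus near the background. No line had repeat cultures, so these tests rest on the spread left after line and condition.

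The genes whose 6 values ran closest to those of the called members were found by Pearson correlation over the 6 arrays, given as a description. For FAS they were PDCD1LG2, which encodes the checkpoint ligand PD-L2 (r = 0.993), PML, an interferon-inducible nuclear body gene (r = 0.990), and GCLM, a subunit of the enzyme that starts glutathione synthesis (r = 0.987). For CFLAR they were ADAD2-AS1 (r = 0.990), NUCB1, a calcium-binding Golgi protein gene (r = 0.987), and CD274, which encodes PD-L1 (r = 0.986). The arrays share lines and conditions, which alone can bring such values close together.

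The rest of the pathway was read from a list of 55 further genes, of which 49 had a probe set of 1 symbol and 42 were tested. Only TNFAIP3 was called, that is 1 of 42 against the 0.413% called higher of all tested genes, and none was called lower. At an unadjusted p under 0.05, 8 were higher and 2 lower, where 7.02% of all tested genes were higher and 13% lower. The median difference was 0.11 over the list, against -0.041 over all tested genes, and 12 of the 42 were higher in 3 of 3 lines, against 16.2% of all tested genes.

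By role, the median difference was 0.61 for 2 tested ligands, 0.88 for 6 receptors, 0.22 for 10 adaptors and ubiquitin ligases and 0.31 for 7 deubiquitinases and kinases of the receptor complex. Among the last, TNFAIP3, which encodes the ubiquitin-editing inhibitor A20, was at 5.38, 6.31 and 6.49 alone and at 9.96, 11.08 and 9.42 in co-culture in 92.1, Mel 270 and Mel 290. The groups did not overlap, and it rose by 4.09 ± 1.01 (adjusted p = 0.036), though it was not called without 92.1, after cyclic loess or without the line block. CYLD, a deubiquitinase of the same complex, was 1.86, 2.82 and 0.67 higher (mean 1.78 ± 1.08, adjusted p = 0.11). BIRC2, which encodes the ubiquitin ligase cIAP1, was 2.02, 2.04 and 0.60 higher (mean 1.55 ± 0.83, adjusted p = 0.10) and was called without Mel 290. TRAF1, a signalling adaptor, differed by 0.76, 2.28 and 1.50 (mean 1.51 ± 0.76, adjusted p = 0.094). In each of these except TRAF1, Mel 290 had the smallest difference.

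The 2 receptors outside the members with the largest mean change were uneven between lines. TNFRSF1B, a TNF receptor without a death domain, was 4.23 higher in Mel 270, 0.72 in 92.1 and 0.22 in Mel 290 (mean 1.72 ± 2.19, adjusted p = 0.32). For TNFRSF21, the death receptor DR6, line 92.1 gave 2.52, Mel 270 gave 1.97 and Mel 290 gave -0.37 (mean 1.37 ± 1.54, adjusted p = 0.27). The receptor gene TNFRSF12A lies outside the rule for named genes and was chosen after its values were seen. It was higher by 1.07 in 92.1, 1.07 in Mel 270 and 0.54 in Mel 290 (mean 0.90 ± 0.31, adjusted p = 0.086). TNF itself was higher by 2.16 in 92.1, by 0.65 in Mel 270 and by 0.58 in Mel 290 (mean 1.13 ± 0.90, adjusted p = 0.17), from values below 5.80 alone, and LTA, which encodes lymphotoxin alpha, by 0.09 ± 0.23 (adjusted p = 0.81).

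Downstream of the caspases no difference passed, and group medians were lowest in 92.1. None of 6 tested caspase genes and inhibitors and none of 8 tested genes of the mitochondrial arm was called, with medians of -0.20 and -0.087. In 92.1, Mel 270 and Mel 290 the medians were -0.44, -0.094 and -0.011 for the caspase group. For the mitochondrial arm they were -0.27, 0.11 and 0.0070, and over all tested genes -0.081, -0.064 and 0.0067. DFFA, the inhibitor of the caspase-activated DNase, was lower in each line (-0.58 ± 0.24, adjusted p = 0.13), and DFFB, the DNase itself, differed by -0.38 ± 0.38 (adjusted p = 0.33). CYCS, which encodes cytochrome c, differed by -0.28 ± 0.37 (adjusted p = 0.46) and BAX, a pore former of the mitochondrial membrane, by -0.23 ± 0.24 (adjusted p = 0.48). Of the necroptosis genes, the effector MLKL was 1.96 and 1.10 higher in 92.1 and Mel 290 and stood at -0.18 in Mel 270 (adjusted p = 0.28), and the phosphatase gene PGAM5 by -0.35 ± 0.37 (adjusted p = 0.36). MLKL and TNFSF10 both had their lowest difference in Mel 270, where each was below 5.80 on both arrays. MLKL was at 5.58 alone and 5.40 in co-culture in that line.

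**Figure D3:**
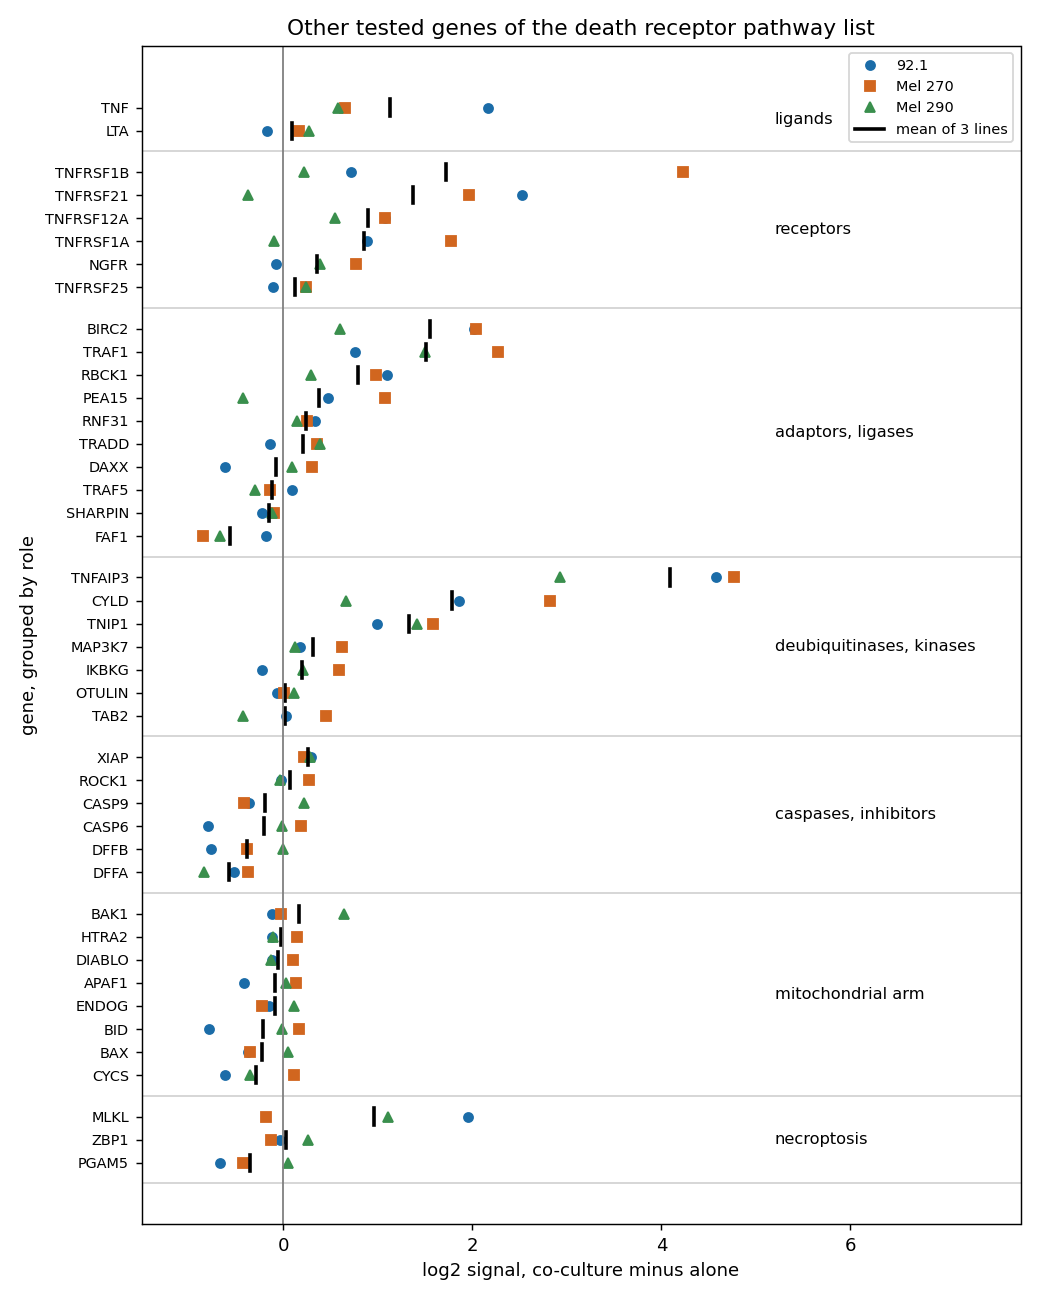
Log2 signal in co-culture minus that alone (horizontal axis) for the 42 tested genes of the wider pathway list, grouped by role, with 1 symbol per line and a black bar at the mean of the 3 lines. Mean differences above 1 lie among ligands, receptors, adaptors and the deubiquitinase group, led by TNFAIP3 at 4.09. Means in the caspase group run from -0.58 for DFFA to 0.26 for XIAP. Those in the mitochondrial group run from -0.28 for CYCS to 0.17 for BAK1.

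Interferon and NF-kappaB target genes were higher in the same arrays. Of 6 tested interferon targets 3 were called higher, with a median of 4.28 and medians by line of 5.14 in 92.1, 4.69 in Mel 270 and 3.52 in Mel 290. Of 7 tested NF-kappaB targets 2 were called higher, with a median of 3.37 and medians of 3.54, 4.75 and 2.28 in the same order. All 13, TNFAIP3 among them, were higher in 3 of 3 lines, against 16.2% of all tested genes, of which 0.413% were called higher. These target genes were chosen with earlier results of these data known. Of the called interferon targets, CXCL10 and IDO1 lay below 5.80 on each array alone and passed the filter through their co-culture values. For both reasons these counts are a description. The differences in TNFSF10, with Mel 290 highest and Mel 270 lowest, followed the order of neither set of medians. Single targets varied in their order too, and that of RELB was the same as that of TNFSF10. The part of these signals in the changes of the death receptor genes was not tested.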

How the data were processed

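Total RNA of 3 lines, alone and in co-culture, was measured on 6 one-colour Affymetrix arrays. The authors deposited log2 values, from 1.49 to 13.9, made with Affymetrix Expression Console 1.2.0.20, per the submitters' processing notes. The sources used here do not give how background was corrected or probes were summarized and normalized. Array medians were 6.63 to 6.69, so values were used as deposited, and the number of arrays limits the precision.

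Symbols came from the array annotation, updated through a RefSeq table (GRCh38.p14). A gene took its probe set with the highest mean and was tested if that mean reached the 25th percentile of listed probe sets (5.80). Of 18417 genes 13808 were tested. Co-culture was compared with growth alone by limma 3.58.1 in R 4.3.3 (lmFit, eBayes) with cell line as a block and Benjamini-Hochberg adjustment over all tested genes at 0.05. The cell line pairs the arrays: deviations from the group means of same-line arrays correlated at 0.74 to 0.83 across genes. A second fit used all probe sets of 1 symbol, and contrasts set each line against the mean of the other 2. The fit had 2 residual degrees of freedom plus a prior worth 3.10. P-values for co-culture rest on how the co-culture difference varied between lines, moderated by the prior, and not on repeat cultures. An exact permutation test over 3 pairs could not go below 0.25. The fit was tested on simulated data, and the alternatives tried are given in the closing section.

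Named were all members, each called gene of the wider list, the 2 tested genes of each role with the largest mean change, and the 3 genes most like each called member. The members and lists were chosen with earlier results of these data known. Probe sets of close paralogs, as among the TRAIL receptors, can share signal.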

Additional observations from a re-analysis of the deposited data

Results flagged for a closer look

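Among the members and the genes of the wider list named in the text, some differed in 1 line against the direction of the other lines. Each line has 1 array per condition, so these differences between lines were not tested. CFLAR probe set 8047401 was at -0.63 in Mel 290, with 0.98 in 92.1 and 1.63 in Mel 270, and is the only one of these cases in which every line differed by more than 0.5. TNFRSF21 was at -0.37 in Mel 290 and MLKL at -0.18 in Mel 270, against values above 1 in the other lines. The remaining cases among the named genes were TNFRSF10D (0.20 in Mel 290), FADD (0.30 in Mel 290), LTA (-0.17 in 92.1), BAX (0.053 in Mel 290), CYCS (0.12 in Mel 270) and PGAM5 (0.047 in Mel 290). Outside the rule for named genes, and chosen after their values were seen, BAK1, a pore former like BAX, was at 0.65 in Mel 290, -0.12 in 92.1 and -0.03 in Mel 270, and PEA15, a death effector domain protein gene, was at -0.43 in Mel 290, 0.47 in 92.1 and 1.08 in Mel 270.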

How the results depend on the processing

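The line pairing mattered most: with no replicate block 18 genes were called (62 with it), 0 members and 0 genes of the wider list. Cyclic loess called 41 genes, 1 member and 0 genes of the wider list. The count of members called fell from 2 to 1 under quantile normalization, with no filter on low values, with low values raised to the filter level, with the mean of all probe sets of a gene and with a trended variance prior, and each time FAS was called and CFLAR was not. With the mean of all probe sets, 1 member was called in Mel 290 against the other lines (2 as reported). Leaving out 1 line gave 48 to 82 genes called, 0 to 2 members and 0 to 2 genes of the wider list. Without Mel 270 the members called were FAS and TNFSF10, and TNFSF10 passed the filter there only through its co-culture values. FADD, near 0 as reported, ran from -0.15 without Mel 290, a change of sign, to 0.12 without Mel 270. TNFRSF10B ranged from 0.64 to 0.80 and CASP8 from 0.60 to 1.01 over the alternatives, both without passing in any. Low signal limits TNFSF10, CASP10, TNFRSF10A and TNFRSF10D.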
